A study of Mus musculus with 4 samples.

Results

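The proteasome genes of this data set were the 48 rows, of 31748 gene rows in the tables, whose symbol begins with Psma, Psmb, Psmc, Psmd, Psme, Psmf or Psmg followed by a digit. Psmb8, Psmb9 and Psmb10, the inducible subunits of the immunoproteasome, and rows named as pseudogenes were left out of the group. Of the 48, 46 had enough counts to be tested. The other 2 were Psma8, a core subunit of the testis with at most 4 counts in a library, and Psmb11, a core subunit of thymic epithelium with at most 2. Of the 46, 14 encode subunits of the constitutive core, 17 subunits of the regulatory particle, 6 activators or an inhibitor, 4 assembly factors of the core and 3 assembly factors of the base. The remaining 2 match the name but are not subunits: Psmc3ip acts in meiotic recombination, and Psme3ip1 is a partner of the activator PA28 gamma.

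The proteasome is the cell's main machine for degrading proteins marked with ubiquitin. Its 20S core is a barrel of stacked alpha and beta rings with the protease sites inside, and the 19S regulatory particle caps the barrel. The base of the cap holds a ring of ATPases that unfold the substrate and thread it into the core, and the lid removes the ubiquitin chain. Other caps, the PA28 and PA200 activators, open the barrel without using ATP, and dedicated chaperones help to build the core and the base. Activated T cells grow and divide quickly, and the peptides that proteasomes release also feed antigen presentation.

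RNA-seq libraries were compared from T cells of TEaWT mice (WT, 2 libraries) and TEaMthfd2 KO mice (KO, 2 libraries). TEa is a T cell receptor transgene that both groups carry, and Mthfd2 encodes a mitochondrial enzyme of folate metabolism. Per the labels, CD4+ T cells were taken by positive magnetic sorting from spleens at 8 weeks of age and kept for 3 days with antigen-presenting cells. Those came from spleens of F1 (BALB/c x C57BL/6) animals of the same age and had been exposed to mitomycin, which stops division. The promoter, cell type or stage at which Mthfd2 was deleted is not named in the labels. Nor do they say whether the libraries of a group are separate animals or cultures, so the p-values measure only the spread between libraries, which may be technical.

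Levels are given as CPM, read counts scaled to the size of the library. Mthfd2 itself stood at 279.8 and 280.5 CPM in WT replicates 1 and 2 and at 222 and 252 CPM in KO replicates 1 and 2, a log2 fold change of -0.24 ± 0.14 (SE, n = 2 per group, as in all values here). It did not pass the edgeR test (adjusted p = 0.324). Whole-gene counts do not show whether single exons were lost, so every direction below is that of the libraries labelled KO. Depth ranged from 14191401 to 15955863 counts per library. Cd8a stood at 3.10 to 4.00 times Cd4 in all 4 libraries, against the label of CD4+ cells. Markers of other cells also differed between the groups. All 12 tested B cell markers had a negative log2 fold change and 5 passed the test, with a summed level of 1489 and 936 CPM in WT and 549 and 491 CPM in KO. Of 7 genes of class II antigen presentation, 6 passed as lower, with sums of 3900 and 2325 CPM in WT and 1232 and 1068 CPM in KO. The myeloid and dendritic markers summed to 200.5 and 93.1 CPM in WT and to 42.9 and 34.3 CPM in KO, with C1qa at 0 throughout and 2 of 7 tested genes lower. The 9 T cell markers went the other way, with sums of 2396 and 2760 CPM in WT and 3714 and 3899 CPM in KO, and 3 passed as higher. The part of these shifts in the proteasome values was not tested. In bulk RNA, fewer cells of a type and less of an RNA per cell cannot be told apart.

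Proteasome transcripts made up a smaller share of the counts in both KO-labelled libraries. All 48 genes together held 0.924% and 0.825% of the counts in WT replicates 1 and 2, and 0.669% and 0.713% in KO replicates 1 and 2, with no overlap between the groups. Of the 46 genes tested, 43 had a negative log2 fold change (KO over WT), against 50.2% of all 12752 genes tested. The median over the 46 genes was -0.23, a KO to WT ratio of 0.854, and the range was -0.67 to 0.05. All 12752 genes had a median of -0.0026. The 3 proteasome genes with a positive value were Psmc6, a base ATPase (0.05), Psme4, which encodes the nuclear activator PA200 (0.04), and Psme3ip1 (0.01).

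No single proteasome gene passed edgeR's quasi-likelihood test after Benjamini-Hochberg adjustment over all genes. The count of 0 called stands against 3.95% of all tested genes, of which 1.56% were lower and 2.39% higher, and the lowest adjusted p was 0.0738, that of Psme3. At an unadjusted p under 0.05, 13 of the 46 were lower and 0 higher, where all tested genes had 12.7% lower and 12.8% higher. Both KO libraries lay below both WT libraries for 29 of the 46, against 30.1% of all tested genes. The opposite order was seen for 0 of the 46, against 29.8%, and the groups overlapped for 17. DESeq2 called 5 of the 46 lower and 0 higher, with 6.39% and 7.02% of all genes called in those directions: Psme3 (adjusted p = 0.00946), Psmc5 (0.0271), Psmd7 (0.0278), Psmc2 (0.0403) and Psmd11 (0.0421). limma-voom called 0 of the 46, beside 217 lower and 376 higher among all 12752 genes tested. It had 14 of the 46 lower at an unadjusted p under 0.05, a share not counted over all genes. Without WT replicate 2, edgeR called 6 of them lower (Psme3, Psmc5, Psmc2, Psmd11, Psme1 and Psme2b), beside 1127 of 13333 genes tested. Without either KO library it called 0 genes in all, with 1 proteasome gene lower at an unadjusted p under 0.05 without KO replicate 1 and 10 without KO replicate 2. Without WT replicate 1 it called 0 of the proteasome genes, with 7 lower at an unadjusted p under 0.05.

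The intervals bound the size of these differences. The 95% interval of the log2 fold change excluded a fall of 2-fold or more for 41 of the 46 genes and a fall of 1.5-fold or more for 17. For all 46 it excluded a rise of 1.5-fold or more. The plot of fold changes by structural class shows that most intervals still included 0.

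**Figure D1:**
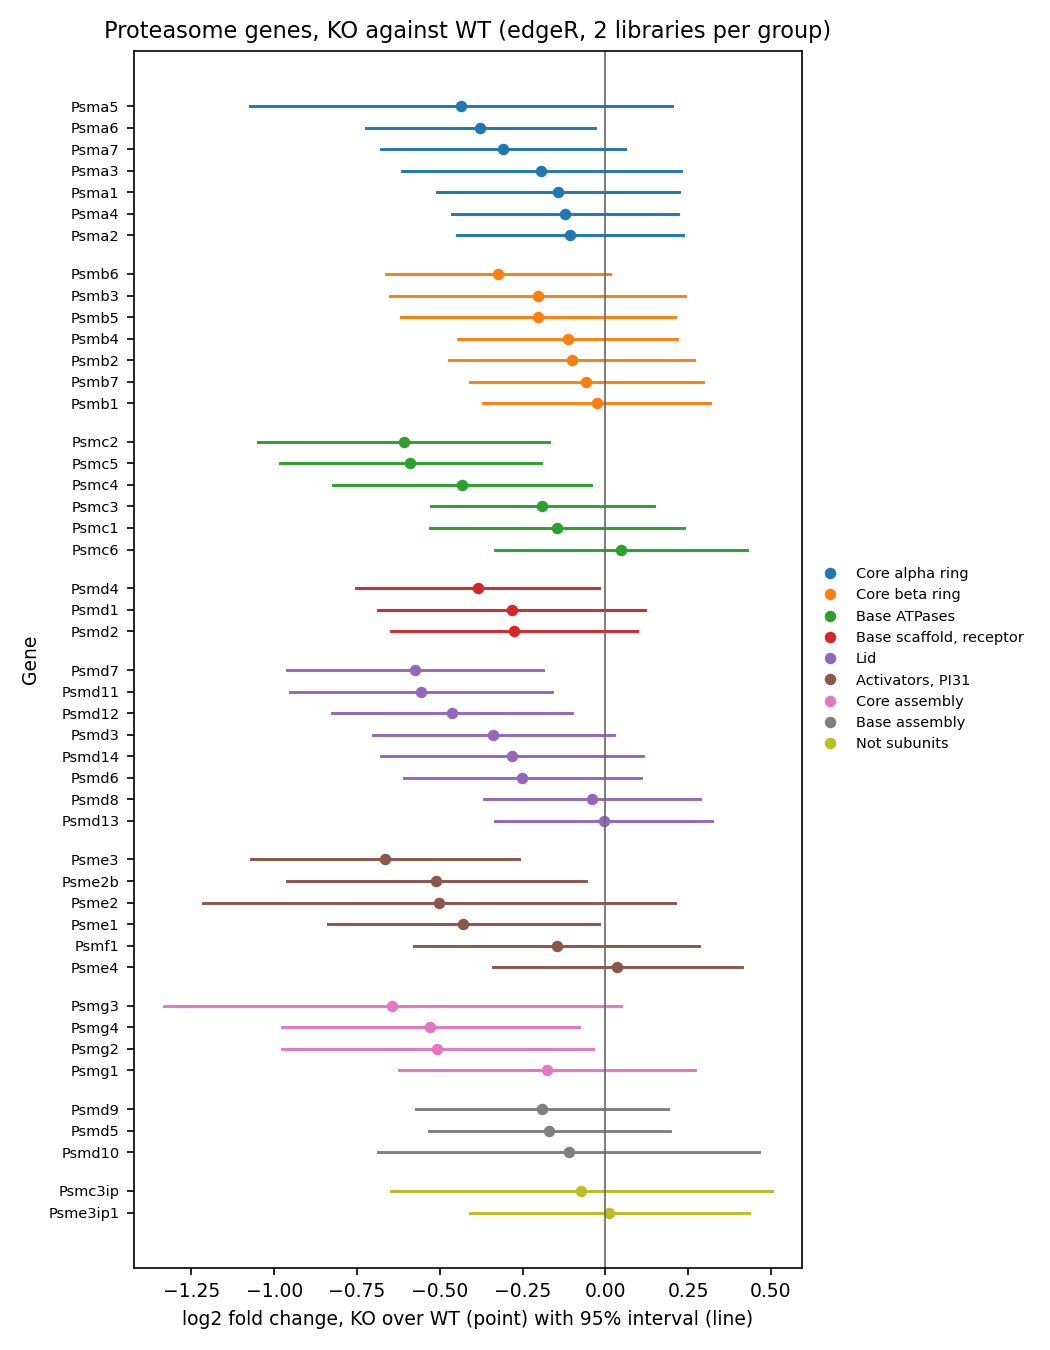
Log2 fold change of each tested proteasome gene, KO over WT (horizontal axis), with its 95% interval from edgeR, grouped and coloured by structural class and ordered by value within a class (vertical axis; 2 libraries per group). Points lie between -0.67 (Psme3) and 0.05 (Psmc6), and 43 of 46 are left of 0.

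The alpha ring forms the gate of the core through which substrates enter. All 7 genes had negative values with a median of -0.19 (-0.084 without WT replicate 1 and -0.34 without WT replicate 2). Both KO libraries were below both WT libraries for 5, against 30.1% of all tested genes. At an unadjusted p under 0.05, where 12.7% of all tested genes were lower, 1 gene of the ring was lower. That gene was Psma6, at 292 and 252 CPM in WT replicates 1 and 2 and at 208 and 210.5 CPM in KO replicates 1 and 2 (log2 fold change -0.38 ± 0.14, adjusted p = 0.168 by edgeR). Its KO libraries were nearly level with each other and below both WT libraries. Psma2 had the value nearest 0 in this ring (-0.11 ± 0.14), with 215 and 196 CPM in WT and 198 and 183 CPM in KO, so its groups overlapped. Psma7, the most abundant core transcript per kilobase, had 409 and 345 CPM in WT and 288 and 320.3 CPM in KO (-0.31 ± 0.15, adjusted p = 0.257).

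Psma5 had the most negative value of the alpha ring (-0.43 ± 0.27, adjusted p = 0.348), but on few counts: 220 and 171 in the WT libraries and 146 and 114 in the KO libraries. Its level per kilobase of transcript was 10.1 CPM in WT, against 412 for Psma7, although the ring holds these subunits in equal number. The row of its processed pseudogene Psma5-ps held between 89.9% and 91.6% of the counts of both rows in each library. Likewise, Psme2b, a near-identical copy of Psme2, held between 94.5% and 95.9% of the counts of that pair. The sequences show how alike the rows of each pair are. Each is a stretch of 120 coding bases of the gene and the matching stretch of its copy, from the GENCODE transcripts of GRCm38, with the 3 bases that differ in capitals. It was chosen as the gap-free coding stretch with the most differing bases. Other such stretches of the pair are at least as alike. Within the stretch, a read must cover such a base to tell the rows apart.
Psma5: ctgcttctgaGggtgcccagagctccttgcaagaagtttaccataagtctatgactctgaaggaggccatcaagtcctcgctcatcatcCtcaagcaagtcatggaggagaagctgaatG
Psma5-ps: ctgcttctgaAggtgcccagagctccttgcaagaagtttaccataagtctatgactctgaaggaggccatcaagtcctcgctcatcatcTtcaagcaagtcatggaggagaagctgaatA
Psme2: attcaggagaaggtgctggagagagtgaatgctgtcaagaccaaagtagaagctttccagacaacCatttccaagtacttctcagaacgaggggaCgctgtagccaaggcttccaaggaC
Psme2b: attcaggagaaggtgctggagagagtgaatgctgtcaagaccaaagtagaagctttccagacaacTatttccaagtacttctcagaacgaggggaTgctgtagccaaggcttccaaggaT
Psma5 lies on the plus strand (GRCm38 chr3:108256926-108279974) and the stretch runs from coding base 515 to 634 of 723. The stretch of Psma5-ps is chr10:85314083-85314202, plus strand, inside its exon, and the copies are 98.6% identical over 952 aligned bases. Psme2 lies on the minus strand (chr14:55587441-55591113) and its stretch runs from coding base 424 to 543 of 717. The stretch of Psme2b is chr11:48945576-48945695, minus strand, and that pair is 99.4% identical over 794 aligned bases.

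Near-identical copies touched other members too. A copy with at least 90% identity over at least 200 bases was found in the annotation for 16 of the 48 genes, and for 12 of them a copy had a row in the tables. Gm4950 held 54.2% to 59.3% of the counts shared with Psmb3, and Gm3375 held 30.6% to 34.4% of those shared with Psmb5. For Psmd2 the share of Gm5422 was 13.3% to 14.04%, and for Psmc1 that of Gm9575 was 8.44% to 11.1%. The share of Gm9575 was higher, and that of Gm5422 lower by less than 1 point, in both KO libraries than in either WT library. The shares of Psma5-ps, Psme2b, Gm4950 and Gm3375 overlapped between the groups, as the plot of stacked levels shows. Gm7776, a copy of Psme1, held 1.19% and 1.345% of the counts of that pair in WT and 0.889% and 0.972% in KO. With copy rows added to their gene, Psma5 had a log2 fold change of -0.33 (adjusted p = 0.229), Psmb3 of -0.18 and Psmb5 of -0.17, all still negative, and edgeR called 0 proteasome genes (13 lower at an unadjusted p under 0.05). Psma3 has a copy, Gm13835, that is 100% identical over 665 bases and has no row in the tables, so the level of Psma3 is uncertain as well.

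**Figure D2:**
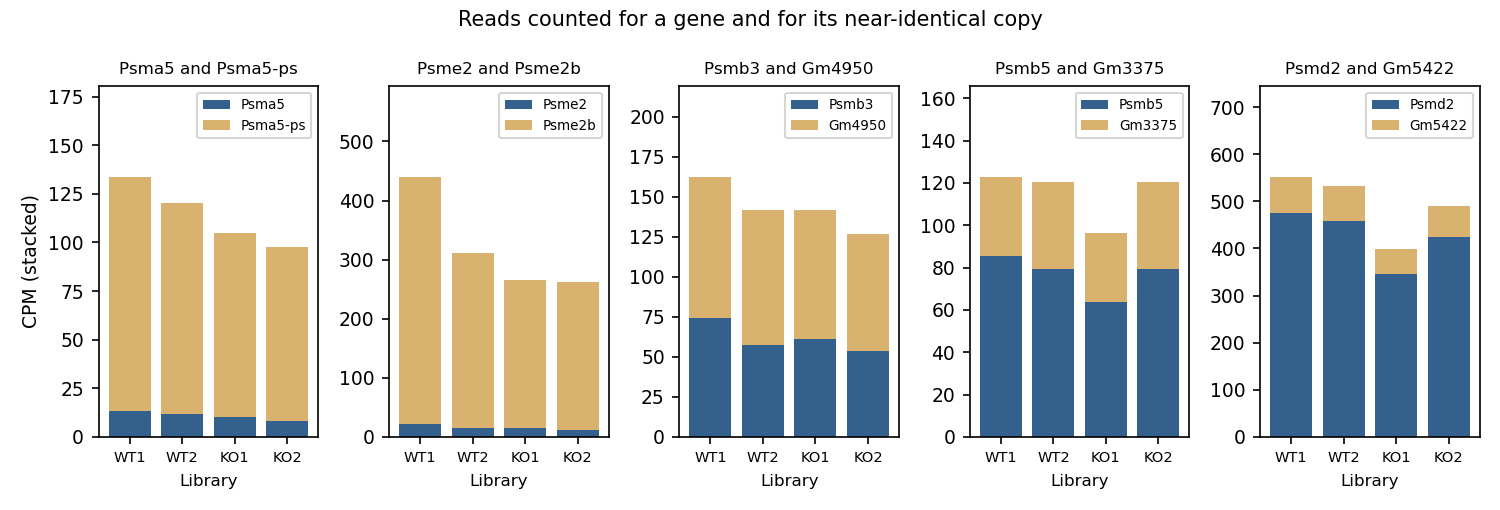
Stacked bars give the CPM counted for a proteasome gene (blue) and for its near-identical copy (tan) in each of the 4 libraries, 1 panel per pair with its own linear axis. The share of the copy varies little between libraries, from 89.9% to 91.6% for Psma5-ps down to 13.3% to 14.04% for Gm5422.

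The beta ring carries the protease sites. Its 7 genes had a median of -0.11 (-0.17 without KO replicate 2). For 3, Psmb6, Psmb5 and Psmb4, both KO libraries were below both WT libraries, against 30.1% of all tested genes. For Psmb5 and Psmb4 the margin was slight: Psmb4 had 327.0 CPM in KO replicate 2 and 328.7 CPM in WT replicate 2. In edgeR 0 had an unadjusted p under 0.05, where 12.7% of all tested genes were lower (DESeq2 called 0). Psmb6, the caspase-like site, stood at 204 and 185 CPM in WT and at 153 and 158 CPM in KO, the most negative value of the ring (-0.32 ± 0.14, adjusted p = 0.212). Psmb5, the chymotrypsin-like site and the main target of proteasome inhibitor drugs, had 85.2 and 79.1 CPM in WT and 63.6 and 79.1 CPM in KO (-0.20 ± 0.17, adjusted p = 0.501). For Psmb6 the groups were apart by a wider margin, while for Psmb5 KO replicate 2 was nearly level with WT replicate 2. Psmb7, the trypsin-like site, had 117 and 126 CPM in WT and 119.7 and 114 CPM in KO (-0.06 ± 0.15), with overlapping groups. Psmb1, a structural subunit, was nearest to 0 at 270.4 and 241 CPM in WT and 262 and 240.5 CPM in KO (-0.03 ± 0.14).

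In immunoproteasomes, the inducible subunits Psmb9, Psmb10 and Psmb8 take the places of Psmb6, Psmb7 and Psmb5. Psmb8 stood at 149.8 and 185 CPM in WT and at 224 and 247 CPM in KO, a log2 fold change of 0.49 ± 0.16 (adjusted p = 0.130, unadjusted p = 0.0213, edgeR). Psmb9 had 193 and 179 CPM in WT and 228 and 231 CPM in KO (0.30 ± 0.14, adjusted p = 0.223), and Psmb10 was level (0.01 ± 0.15). None of the 3 passed the test, where 2.39% of all tested genes passed as higher. For Psmb8 and Psmb9 both KO libraries were above both WT libraries, as for 29.8% of all tested genes. Per kilobase of transcript, the ratio of Psmb9 to Psmb6 was 0.559 and 0.571 in WT and 0.881 and 0.863 in KO. The ratio of Psmb8 to Psmb5 was 0.971 and 1.29 in WT and 1.94 and 1.72 in KO. That of Psmb10 to Psmb7 overlapped, at 0.699 and 0.625 in WT and 0.637 and 0.745 in KO. So for 2 of the 3 sites the inducible transcript stood higher against its constitutive partner in both KO libraries than in either WT library, while no gene of these pairs passed the test on its own. The ratios were given no test, and part of the reads of Psmb5 may lie in its copy.

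**Figure D3:**
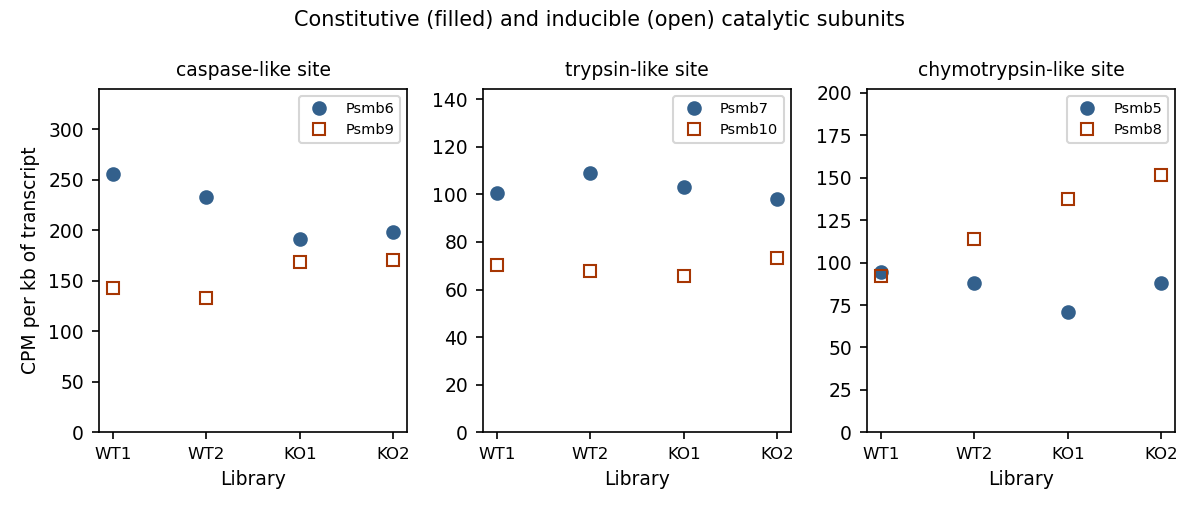
Level of the constitutive (filled circles) and inducible (open squares) gene of each protease site in each library, in CPM per kilobase of transcript on a linear axis from 0. The symbols draw together in the KO libraries for the caspase-like site, where the ratio is 0.881 and 0.863 against 0.559 and 0.571 in WT, and move apart for the chymotrypsin-like site.

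The 19S regulatory particle had 17 tested genes under these names, with a median of -0.28. Of these, 16 were negative, 13 had both KO libraries below both WT libraries and 7 were lower at an unadjusted p under 0.05. Among all tested genes these shares were 50.2%, 30.1% and 12.7%. In the base, the 6 ATPases had a median of -0.31 (-0.19 without KO replicate 1) but were spread widely. Psmc2, which encodes the ATPase Rpt1, stood at 263 and 210.2 CPM in WT and at 138 and 172 CPM in KO (-0.61 ± 0.18, adjusted p = 0.105). Psmc5, which encodes Rpt6, had 253 and 229.6 CPM in WT and 143 and 178 CPM in KO (-0.59 ± 0.17, adjusted p = 0.0896). Both had KO libraries clearly below WT, with KO replicate 1 the lowest of the 4. Psmc4 (Rpt3) was similar, with 263 and 236 CPM in WT and 165 and 204 CPM in KO (-0.43 ± 0.16, adjusted p = 0.164). Psmc6 (Rpt4), which sits in the same ring, had 194 and 185 CPM in WT and 216 and 175 CPM in KO (0.05 ± 0.16), with WT inside the range of KO. The ATPases are needed in equal number in the ring, yet their fold changes ran from -0.61 to 0.05. Differences between these genes were not tested.

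The non-ATPase subunits of the base hold the cap together and bind ubiquitin. All 3 had both KO libraries below both WT libraries, against 30.1% of all tested genes. Their median of -0.28 went to -0.13 without KO replicate 1 and to -0.43 without KO replicate 2. Psmd4, the ubiquitin receptor Rpn10, stood at 211 and 177 CPM in WT and at 147 and 150.04 CPM in KO (-0.39 ± 0.15, adjusted p = 0.179, unadjusted p = 0.0418). Psmd2, the scaffold Rpn1 on which shuttle factors dock, had 475 and 457.5 CPM in WT and 346 and 425 CPM in KO (-0.27 ± 0.16, adjusted p = 0.310). Psmd1, the scaffold Rpn2, had 293 and 268 CPM in WT and 202 and 259.9 CPM in KO (-0.28 ± 0.17, adjusted p = 0.336). For both scaffolds KO replicate 2 came close to the WT libraries, whereas for Psmd4 the KO libraries were level.

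The 8 lid genes with a Psmd name had a median of -0.31. All 8 were negative, 6 had the groups apart and 3 had an unadjusted p under 0.05: Psmd7, Psmd11 and Psmd12. Of all tested genes, 30.1% had both KO libraries below both WT libraries and 12.7% were lower at that p. Psmd7, which encodes Rpn8, the partner of the lid's deubiquitinase, stood at 254 and 239.6 CPM in WT and at 148 and 184 CPM in KO (-0.58 ± 0.16, adjusted p = 0.0901). Psmd11, the scaffold Rpn6 that braces the cap against the core, had 173 and 147 CPM in WT and 101 and 117 CPM in KO (-0.56 ± 0.17, adjusted p = 0.103). Psmd12, the lid scaffold Rpn5, had 190.2 and 176 CPM in WT and 124 and 142 CPM in KO (-0.46 ± 0.15, adjusted p = 0.123). Psmd14, the deubiquitinase Rpn11 itself, had smaller differences, with 211 and 174 CPM in WT and 147 and 169.7 CPM in KO (-0.28 ± 0.17, adjusted p = 0.327). At the other end, Psmd13 (Rpn9) had 195 and 188 CPM in WT and 187 and 194 CPM in KO (-0.01 ± 0.14), with the groups overlapping. Psmd8 (Rpn12) was nearly as level, at -0.04 ± 0.14. The median of these 8 genes was -0.19 without KO replicate 1.

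The regulatory particle has further subunits under other names, Sem1 and Adrm1. Sem1, the small lid subunit Rpn15, had a positive value, at 58.2 and 45.8 CPM in WT and 75.4 and 60.0 CPM in KO (0.38 ± 0.20, adjusted p = 0.275), with both KO libraries above both WT libraries. Adrm1, the ubiquitin receptor Rpn13, had 55.3 and 44.1 CPM in WT and 37.5 and 32.9 CPM in KO (-0.50 ± 0.18, adjusted p = 0.154), with both KO libraries below both WT libraries. Both are counted below among the partners.

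The median of the regulatory particle (-0.28) was farther from 0 than that of the core (-0.17, 14 genes), but this gap came from a single library. Against the gene's mean log2 CPM in WT, the median over the core genes was -0.17 in KO replicate 1 and -0.20 in KO replicate 2. The median over the 19S genes was -0.43 in KO replicate 1 and -0.19 in KO replicate 2. The 19S median minus the core median was therefore -0.26 in KO replicate 1 and 0.0086 in KO replicate 2, beside -0.018 and 0.018 in the WT libraries. In other words, the core genes were about equally low in both KO libraries, and only KO replicate 1 had the 19S genes lower still. KO replicate 1 was the lower of the KO pair for 16 of 17 genes of the regulatory particle and for 6 of 14 of the core. Without KO replicate 1 the median was -0.19 for the 19S and -0.20 for the core, and without KO replicate 2 it was -0.43 and -0.17. The core median was -0.096 without WT replicate 1 and -0.25 without WT replicate 2. A difference between core and regulatory particle was thus not seen in both KO libraries, as the plot of each gene in each library shows. WT replicate 1 was above WT replicate 2 for 37 of the 46 genes. The shares of all tested genes in these orders within a group were not counted. WT replicate 1 also had the highest sums of B cell, class II and myeloid markers, the last mostly Mpeg1, and a link was not tested. Without WT replicate 1 the median of all 46 genes was -0.18, with 41 negative.

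**Figure D4:**
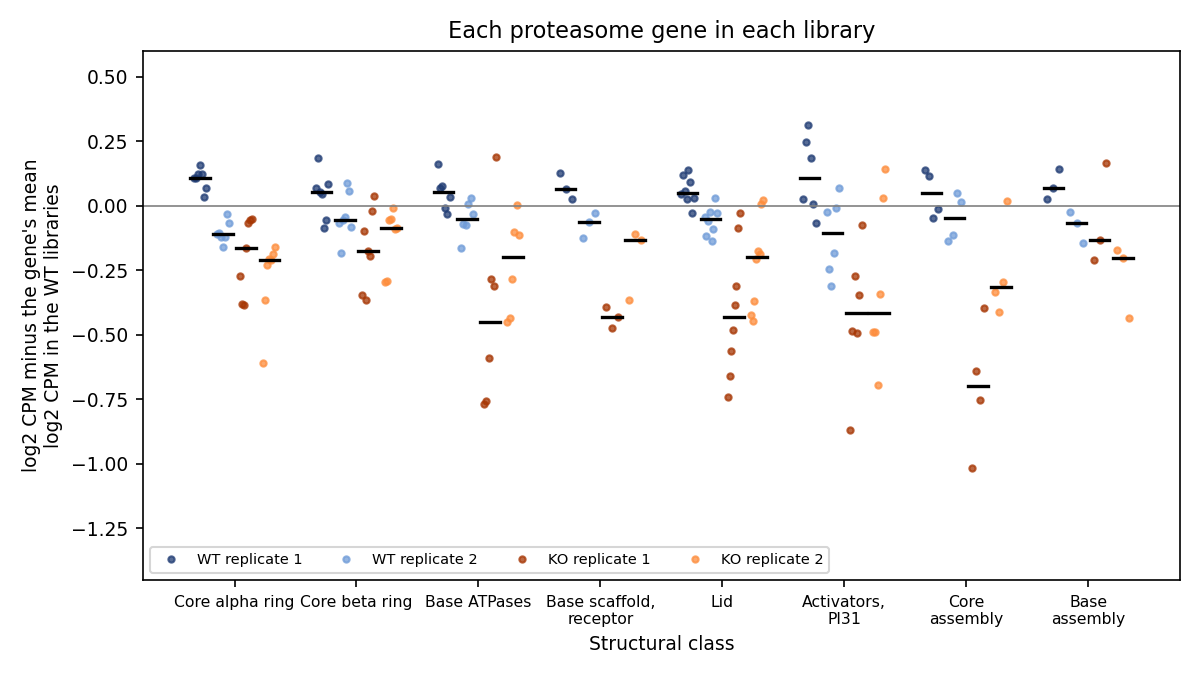
Log2 CPM of each tested subunit, activator and assembly factor in each library minus that gene's mean log2 CPM over the WT libraries (vertical axis), by structural class (horizontal axis), with bars at the median of each library. The medians of both KO libraries lie below 0 in all 8 classes drawn, which leave out Psmc3ip and Psme3ip1, and that of KO replicate 1 is the lower in the base, lid, beta ring and core assembly classes but not in the alpha ring.

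The activators and the inhibitor PI31 had a median of -0.47 over 6 genes, 5 of them negative and 3 with an unadjusted p under 0.05. The near-identical Psme2 and Psme2b count as 2 of the 6, and with copy rows added to their gene the median was -0.43. Of all tested genes, 50.2% were negative and 12.7% were lower at that p. Psme3 had the lowest p of the 46 genes in the fit of all 4 libraries. It encodes PA28 gamma, a nuclear activator of the core, and lies on GRCm38 chromosome 11, from 101316213 to 101323537 on the plus strand. It stood at 524 and 506 CPM in WT and at 282 and 367 CPM in KO (-0.67 ± 0.17, adjusted p = 0.0738). The WT libraries were nearly level and both KO libraries lay well below them. The direction held with each library left out, from -0.87 to -0.48, and the adjusted p was 0.0234 with no filter on low counts. Its partner Psme3ip1, which steers PA28 gamma, was level (0.01 ± 0.18).

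Psme1 and Psme2 encode PA28 alpha and beta, the interferon-inducible activator that shapes peptides for antigen presentation. Psme1 had 442 and 342 CPM in WT and 276 and 307 CPM in KO (-0.43 ± 0.17, adjusted p = 0.180). Psme2b had 418 and 297 CPM in WT and 251 and 250.8 CPM in KO (-0.51 ± 0.19, adjusted p = 0.157), and Psme2 had 21.7 and 14.1 CPM in WT and 14.5 and 10.8 CPM in KO (-0.50 ± 0.30, adjusted p = 0.332). In all 3 WT replicate 1 was well above WT replicate 2, and the KO libraries were nearer to the latter. With the rows of Psme2 and Psme2b summed the value was -0.51 (adjusted p = 0.159). The inducible activator thus had negative values while the inducible core subunits Psmb8 and Psmb9 had positive ones. Psmf1, which encodes PI31, had 73.5 and 72.7 CPM in WT and 57.5 and 74.6 CPM in KO (-0.15 ± 0.18, adjusted p = 0.649). Psme4 had 120.8 and 133 CPM in WT and 120.2 and 139.9 CPM in KO (0.04 ± 0.16). For Psmf1 and Psme4 the groups overlapped. The class median depended on the WT libraries, at -0.19 without WT replicate 1 and -0.64 without WT replicate 2.

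Core assembly is guided by PAC1 to PAC4, which act as pairs on the growing alpha ring and are encoded by Psmg1 to Psmg4. These 4 genes had a median of -0.52, with 3 genes whose groups were apart and 2 with an unadjusted p under 0.05, Psmg4 and Psmg2. Of all tested genes, 30.1% had both KO libraries below both WT libraries and 12.7% were lower at that p. Psmg3 stood at 22.5 and 18.6 CPM in WT and at 10.1 and 16.2 CPM in KO (-0.64 ± 0.29, adjusted p = 0.220). Psmg4, the partner of Psmg3 in the second pair, had 39.2 and 33.5 CPM in WT and 23.2 and 27.2 CPM in KO (-0.53 ± 0.19, adjusted p = 0.146). Psmg2 had 80.9 and 86.5 CPM in WT and 49.6 and 68.2 CPM in KO (-0.51 ± 0.20, adjusted p = 0.171). Its partner Psmg1 differed less, at 68.9 and 70.3 CPM in WT and 52.8 and 70.5 CPM in KO (-0.18 ± 0.19, adjusted p = 0.597), and its groups overlapped. For all 4 genes KO replicate 1 was the lower, and the class median was -0.31 without it and -0.70 without KO replicate 2.

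The chaperones of the base ATPases had values nearer to 0. Psmd9 (p27) had 37.7 and 36.4 CPM in WT and 32.0 and 32.9 CPM in KO (-0.19 ± 0.16, adjusted p = 0.489), and Psmd5 (S5b) had 103 and 93.8 CPM in WT and 89.7 and 85.5 CPM in KO (-0.17 ± 0.15, adjusted p = 0.527). Both genes had the groups apart by a small margin, where 30.1% of all tested genes had both KO libraries below both WT libraries. Psmd10 (gankyrin) had 38.6 and 31.6 CPM in WT and 39.2 and 25.9 CPM in KO (-0.11 ± 0.24, adjusted p = 0.811), with wide overlap. Over the 3 genes the median was -0.17 (-0.096 without WT replicate 1), and 0 had an unadjusted p under 0.05 in edgeR (DESeq2 called 0). In edgeR, 12.7% of all tested genes were lower at that p. Exons of Psmd9 overlap those of the noncoding gene Gm26745 on the opposite strand over 25.5% of their length, so part of its counts is uncertain. Other members had smaller overlaps. Among these were Psmc3ip with Mlx (21.2%), Psmb7 with Nek6 (11.8%) and Psmd13 with Sirt3 (10.1%) on the opposite strand. Psmb5 overlaps Mir686 on the same strand (12.1%).

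Per kilobase of transcript, subunits of the same particle were not equal in level. In WT the core genes ran from 10.1 CPM per kilobase (Psma5, whose copy's row holds most counts of the pair) to 412 (Psma7), and the 19S genes from 71.5 (Psmd11) to 183 (Psmc5). The library medians of the core were 151 and 139 in WT and 144 and 132 in KO, and overlapped. Those of the 19S were 140 and 132 in WT and 101 and 113 in KO, and did not overlap. The 19S median fell on a different gene in each library. Taken gene by gene, as above, a gap between 19S and core was seen only in KO replicate 1. Assembly factors stood lower, with library medians for the core assembly factors of 68.3 and 63.8 in WT and 44.3 and 56.7 in KO, and for the base assembly factors of 23.4 and 21.3 in WT and 20.4 and 18.1 in KO.

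Proteasome genes are known to be induced together by NRF1, the product of Nfe2l1, which binds antioxidant response elements in their promoters when proteasome activity drops. In a fixed list of 31 partners (ubiquitin genes, shuttle factors, proteasome-bound enzymes and the NRF1 axis), 30 were in the tables and tested. In edgeR 0 passed, against 3.95% of all tested genes. At an unadjusted p under 0.05, 8 were lower and 1 higher, against 12.7% and 12.8% of all tested genes. The median of the 30 was -0.19, and 23 were negative, against 50.2% of all tested genes. DESeq2 called 1 lower, Nfe2l1 (adjusted p = 0.0215), against 6.39% of all genes. Nfe2l1 stood at 249.5 and 166 CPM in WT and at 122 and 126 CPM in KO (-0.74 ± 0.21, adjusted p = 0.0924 in edgeR). WT replicate 1 was far above the other libraries, and both KO libraries were below both WT libraries. Ngly1, the enzyme that removes sugars from NRF1 and so allows its activation, was the gene with the higher value, at 44.7 and 49.7 CPM in WT and 69.3 and 64.0 CPM in KO (0.50 ± 0.16, adjusted p = 0.115).

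The other partners with the lowest p-values had negative values. Rps27a, which encodes ubiquitin fused to a ribosomal protein and has many pseudogenes, had 34.5 and 27.5 CPM in WT and 19.8 and 18.4 CPM in KO (-0.70 ± 0.20, adjusted p = 0.0971). Zfand2a, a stress-induced binder of proteasomes, had 37.0 and 28.1 CPM in WT and 20.2 and 21.4 CPM in KO (-0.64 ± 0.21, adjusted p = 0.121). Zfand5, which stimulates proteasome activity, had 156 and 109 CPM in WT and 79.5 and 96.0 CPM in KO (-0.60 ± 0.22, adjusted p = 0.150). In each of these, picked for their low p, the groups did not overlap. Of all 30 partners, 14 had both KO libraries below both WT libraries and 5 had both above. Among all tested genes these shares were 30.1% and 29.8%. Ubqln1, a factor that shuttles ubiquitinated proteins to the proteasome, had 274 and 248 CPM in WT and 169 and 212 CPM in KO (-0.45 ± 0.16, adjusted p = 0.152), again with the groups apart.

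Because these genes have a known shared promoter element, the RefSeq promoter windows of GRCm38.p6 (250 bases before to 50 after each start) were searched for it. A window was matched for 40 of the 48 genes. The element was written as TGACNNNGC on either strand, and a gene was counted if any of its windows held a match. It was present for 6 of the 40 genes (15.0%), against 17.0% of the 9558 tested genes with a window. Of all 27025 genes with a window, 13.99% had it. The share was close to that of other genes. The E-box CACGTG was present in 4 (10.0%), against 11.8% of tested genes, and CCAAT in 15 (37.5%), against 43.4%, both on either strand. Among the tested members other than Psmc3ip and Psme3ip1, the 6 with the element had a median log2 fold change of -0.20 and the 31 without it of -0.28. The matches in 26S genes are shown with their flanks, 5′ to 3′ on the gene's strand and with the match in capitals, as the letters the search found. In Psmc6 and Psmd12 the match reads on the opposite strand.
Psmb6: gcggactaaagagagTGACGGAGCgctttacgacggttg
Psmb5: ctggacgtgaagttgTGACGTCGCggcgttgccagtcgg
Psmd12: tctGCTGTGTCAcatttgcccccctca
Psmc6: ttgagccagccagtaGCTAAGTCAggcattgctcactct
They lie at chr11:70525333-70525371 (plus strand) for Psmb6, chr14:54618019-54618057 (minus strand) for Psmb5, chr11:107479278-107479304 (plus strand) for Psmd12 and chr14:45329582-45329620 (plus strand) for Psmc6. Psmd12, with a value of -0.46, and Psmc6, with 0.05, both hold a match, as do Psmb6 (-0.32) and Psmb5 (-0.20). A match of letters is a description and does not show that a factor binds there.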

How the data were processed

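RNA-seq was deposited for 4 mouse libraries, 1 table each. The authors deposited raw counts, whole numbers of reads per gene symbol. The submitters' processing notes name Subread 2.0.1, featureCounts, the build mm10, DESeq2 1.30.1 and R 4.0.4. For the aligner, annotation release, strand setting and reads with several matches, the answer is "not given in the sources used here", so copies and overlapping genes are uncertain.

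The counts were analysed here with edgeR 4.0.16 (R 4.3.3). filterByExpr (minimum count 10, minimum total 15) left 12752 genes. Libraries were scaled by TMM (factors 0.968 to 1.027), and KO was set against WT by the quasi-likelihood test, without covariates. Benjamini-Hochberg adjustment ran over all genes tested, with calls at an adjusted p under 0.05. CPM use the TMM-scaled library total, and levels per kilobase the median length of a gene's principal transcripts in GENCODE M21 (GRCm38, which mm10 names too). The fit was tested on simulated data. Alternatives were upper quartile, RLE and unscaled libraries, no filter, DESeq2 1.42.0, limma-voom (limma 3.58.1), a replicate block, pseudogene rows added to their gene, and each library left out. Copies were searched among GENCODE transcripts with BLAST.

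The members, classes and partner list were chosen with earlier results of these data known. Any member could be named. Values in every library were due for the extremes of each class, the catalytic subunits, the ubiquitin receptors, Psmd14, and all activators and assembly factors. Of the partners, called genes or else the 6 with the lowest p were due. Psma6, Psma7, Psmc4, Psmc5, Psmd1, Psmd8, Psmd11 and Psmd12 were added after their values were seen. Among marker lists not in the text, 1 of 3 tested plasma cell genes, 0 of 3 NK genes (edgeR; 1 at an unadjusted p under 0.05) and 2 of 3 erythroid genes were lower.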

Additional observations from a re-analysis of the deposited data

How the results depend on the processing

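The design has 2 libraries per group, and the median SE of the proteasome genes was 0.16. The settings differed in how many of all genes they called lower: 199 of 12752 with edgeR as set and 682 of 18347 with no filter on low counts. DESeq2 called 783 of 12257 lower, and the replicate block 401 of 12752. The count of proteasome genes called lower was 0 with edgeR. It was 1 with no filter on low counts, 5 with DESeq2 and 1 with the replicate block (Psme3 in both cases of 1), and 0 to 6 with 1 library left out, the 6 without WT replicate 2. Same-numbered libraries did not deviate together (correlation 0.04), so the numbers were not taken to pair them, and the replicate block changed no other call on these genes (Psme3 had an adjusted p of 0.0484). For the partners it was 0, then 1 with no filter, 1 with DESeq2 and 0 to 5 with 1 library left out. With 1 library left out, the class medians ranged as follows: all proteasome genes -0.33 to -0.18, alpha ring -0.34 to -0.084, both rings -0.25 to -0.10, beta ring -0.17 to -0.084, base ATPases -0.45 to -0.19, base scaffold and receptor -0.43 to -0.13, lid -0.43 to -0.19, 19S -0.43 to -0.19, base assembly -0.23 to -0.096, activators -0.64 to -0.19 and core assembly -0.70 to -0.31. A group left with 1 library borrows the spread of the other, and edgeR then called 0 genes in all without either KO library. With library size alone as scaling, which moved the median of all genes to -0.05, Psme3ip1 (-0.041), Psme4 (-0.015) and Psmc6 (-0.0020) became negative. Genes near 0 changed sign as single libraries were left out: Psmd13 (-0.028 to 0.027), Psme4 (-0.075 to 0.15), Psmb1 (-0.10 to 0.063), Psmd10 (-0.44 to 0.16), Psmb7 (-0.11 to 0.0058), Psme3ip1 (-0.15 to 0.16), Psmc3ip (-0.32 to 0.15), Psmf1 (-0.34 to 0.033), Psmd8 (-0.085 to 0.011), Psmc1 (-0.31 to 0.0074), Psmc6 (-0.11 to 0.19) and Psmg1 (-0.40 to 0.023). The cause was not tested. Adding all near-identical copy rows to their gene, an alternative chosen after seeing the data, changed no call. It joined Psme2b to Psme2, and the median over the 45 genes then left was -0.20.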
